A study of Mus musculus with 6 samples.

Results

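The aldo-keto, carbonyl and quinone reductases are enzymes that reduce ketones, aldehydes, quinones and other reactive groups with electrons from NADPH, NADH or a related nicotinamide. The set held 10 genes: Nqo1, Nqo2, Akr1b8, Akr1b7, Akr1c13, Akr1c18, Cbr1, Cbr2, Cbr3 and Ptgr1. They were chosen by name as reductases of these families, with earlier results of these data known. 9 of them had a probe set annotated to that gene alone, of 18193 genes in all, and Akr1b7 was not analysed here. Where a gene had several such probe sets, the brightest on average over the 6 arrays was taken, and the others served as a check. Of the 9 genes only Nqo2 had more than 1. Gene expression was measured in tongue tissue of C57BL/6J mice, an inbred strain that both groups shared. In the 4NQO group, 3 mice received 4-nitroquinoline 1-oxide (4NQO), a carcinogen given here in drink at 100 μg/ml, for 8 weeks. The control group was 3 untreated mice. Each tongue was put on 1 Affymetrix array, and the values are log2 signals that the authors had normalized, so that differences between groups are log2 fold changes.

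These enzymes serve the disposal of reactive carbonyls and quinones, which arise from lipid peroxidation, from steroid and prostaglandin metabolism and from foreign compounds. Several of the genes, Nqo1 foremost, are textbook targets of the transcription factor NRF2, which governs the response to oxidants and electrophiles and binds antioxidant response elements in the DNA. The same chemistry can also activate a toxin. NQO1 reduces the nitro group of 4NQO to the hydroxylamine 4-hydroxyaminoquinoline 1-oxide, which after esterification binds DNA.

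The median log2 signal over all probe sets lay between 4.45 and 4.55 on the 4NQO arrays and between 4.57 and 4.60 on the control arrays. The labelled tissue was checked against marker genes. The mean log2 signal of 6 basal keratinocyte markers ran from 10.92 to 11.41 over the 4NQO arrays and from 10.85 to 11.34 over the control arrays, and that of 8 skeletal muscle markers from 11.15 to 12.07 over the 4NQO arrays and from 11.22 to 12.26 over the control arrays. Muscle was lowest in 4NQO 2 (11.15), against 12.04 and 12.07 in the other 4NQO tongues, and in control 3 (11.22), against 12.26 and 12.10 in the other control tongues. Markers of both epithelium and muscle thus gave a signal in each tongue. The log2 signal at the 3' end of Gapdh minus that at its 5' end, a sign of RNA quality, was highest on 4NQO 2 (1.07) and control 3 (1.67) and ran from 0.0858 to 0.469 on the other 4 arrays. The same difference for actin ordered the arrays otherwise, at 1.12, 0.954 and 0.549 in 4NQO 1 to 3 and 0.752, 0.830 and 1.01 in control 1 to 3. Values with and without these arrays are given where a call changes.

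4 of the 9 measured reductases rose in tongues treated with 4NQO, with adjusted p under 0.05 from limma, a linear model fitted to all genes, and 5 did not pass. Of all genes, 0.126% were called higher and 0.0055% lower by the same test. The count varied when a single array was left out, which also leaves fewer samples in the fit, and the cause of lost calls was not tested. Limma called 0 of the 9 genes without 4NQO 2 or without control 2, and 1 without 4NQO 1 or without control 1, and of all 18193 genes it called 1 higher without 4NQO 2 and 0 without control 2, where 949 and 833 were higher at an unadjusted p under 0.05. The 4 genes were Akr1b8, an aldehyde reductase, Nqo1, a quinone reductase, Ptgr1, a reductase of unsaturated ketones, and Cbr3, a carbonyl reductase. The study named Akr1b8 and Ptgr1 among the genes that 4NQO raised on arrays of this design, which may be these same arrays, so that their direction is not taken as independent evidence. Its text names neither Nqo1 nor Cbr3 among its array genes, but it names only some of the genes it called, so this does not show that it missed them. For NQO1 protein, it reported stronger immunostaining in the epithelial cells of treated tongue. At an unadjusted p under 0.05 from limma, 6 of the 9 genes were higher and 1 lower, against 6.68% and 3.74% of all genes. Of all genes at that unadjusted threshold, 1216 were higher and 681 lower, or 1739 and 340 after centring the arrays on their medians. None of the 9 was called lower either by SAM, a method that the study also names but that was written anew here. The tongue is a mixture of epithelium, muscle, connective tissue, vessels and glands, and in such a sample a larger share of the cells that express a gene cannot be told apart from more RNA in each cell.

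**Figure D1:**
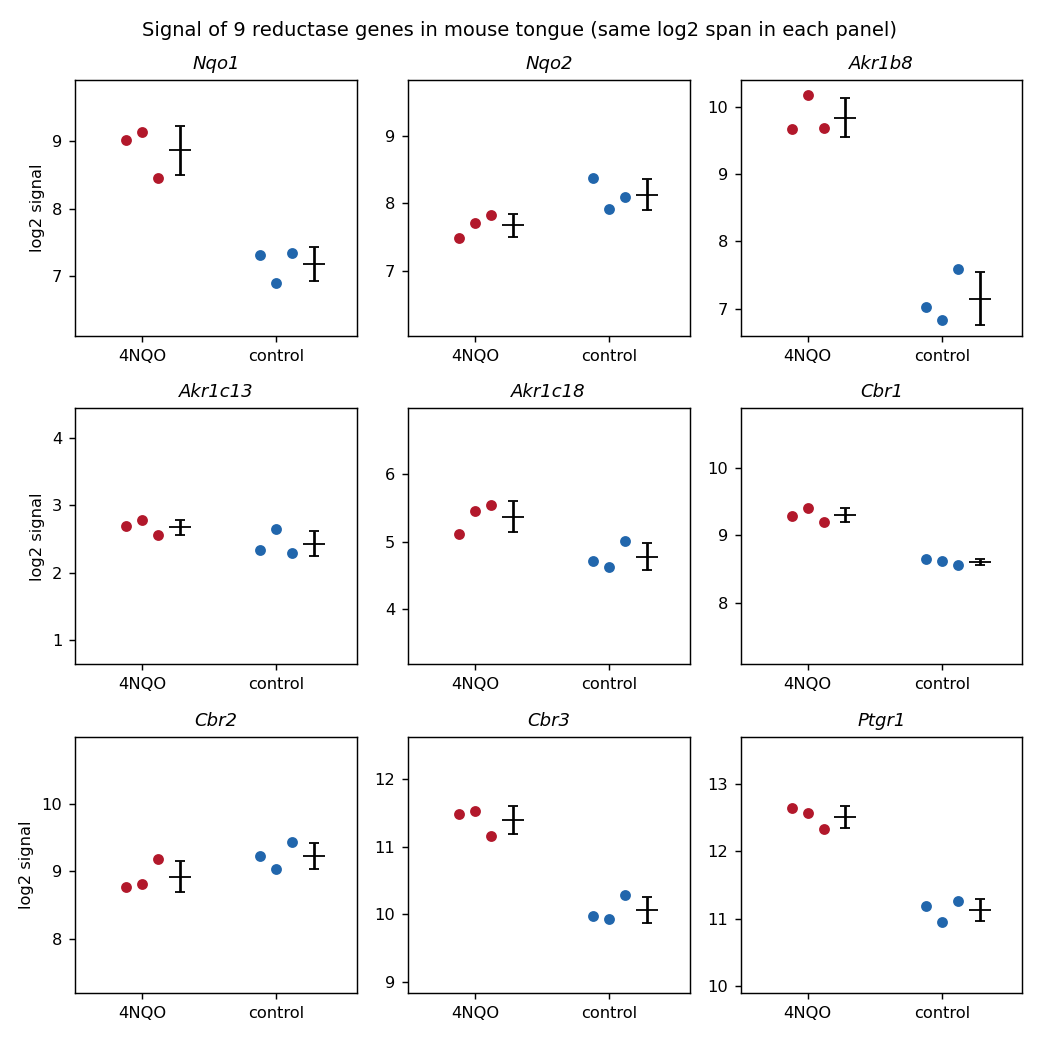
Log2 signal of the 9 measured reductases, with 1 point for each of 3 4NQO-treated and 3 control tongues, and a bar and whiskers for the group mean and SD. Each panel has its own vertical axis in log2 signal, of the same span. The 4NQO points lie apart from and above the control points for Nqo1, Akr1b8, Akr1c18, Cbr1, Cbr3 and Ptgr1, lie below them for Nqo2, and overlap them for Akr1c13 and Cbr2.

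Nqo1 and Nqo2 encode the quinone reductases. NQO1 reduces quinones straight to hydroquinones with NADH or NADPH, which avoids the reactive semiquinone, while NQO2 uses dihydronicotinamide riboside and has little activity with NADPH. Nqo1 had log2 signals of 9.01, 9.13 and 8.45 in 4NQO tongue and of 7.31, 6.89 and 7.34 in control tongue. Every 4NQO-treated tongue thus lay above every control tongue, with means of 8.86 ± 0.36 in 4NQO tongue and 7.18 ± 0.25 in control tongue (SD, n = 3 each) and a gap of 1.10 between the groups. Nqo1 rose 3.21-fold, a log2 fold change of 1.68 (SE, the standard error, 0.22, 95% interval 1.18 to 2.19, limma's adjusted p = 0.0471). The adjusted p of Nqo1 lay close to the threshold. It was 0.0340 without 4NQO 3, and it missed the threshold without 4NQO 1 (0.143), 4NQO 2 (0.180), control 1 (0.136), control 2 (0.175) or control 3 (0.0665), while the log2 fold change stayed between 1.54 and 1.89. Without 4NQO 2 and control 3 together, the arrays with the weakest 5' end of Gapdh relative to its 3' end, the adjusted p was 0.206, an alternative chosen after seeing the data.

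Nqo2 had log2 signals of 7.49, 7.71 and 7.82 in 4NQO tongue and of 8.37, 7.92 and 8.09 in control tongue. The groups did not overlap, with all 4NQO-treated tongues lower, but the gap was only 0.09. The log2 fold change of Nqo2 was -0.45 (SE 0.17, limma's adjusted p = 0.421) and did not pass the test. The 2 dimmer probe sets of Nqo2 had log2 fold changes of -0.43 and -0.26, with overlapping groups.

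Within each array, the log2 signal of Nqo1 minus that of Nqo2 was 1.52, 1.42 and 0.63 in 4NQO tongue and -1.06, -1.02 and -0.75 in control tongue. The probe sets differ in how strongly they bind, so only the change of this difference between the groups carries meaning. It amounted to 2.13 (two-sided exact permutation test, p = 0.1, 3 arrays per group), and the adjusted p was 0.15 over the 3 pairs of enzymes compared. With 3 against 3 arrays this test cannot give a p below 0.1. All 4NQO-treated tongues lay above all control tongues in this difference. That order, and with it the p of 0.1 from the permutation test, had to follow. Nqo1 was higher and Nqo2 lower in every 4NQO-treated tongue than in every control tongue, so the test adds nothing to these.

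The start regions of the 4 genes that rose, and that of Nqo2 for comparison, are printed because the 4 genes rose together and Nqo2, of the same family as Nqo1, did not. Each holds 250 bases before and 50 after the gene's start in the RefSeq table of the GRCm38.p6 build, read on the gene's own strand. Capitals mark GC boxes (GGGCGG) and TATA boxes (TATAAA) found on either strand. The Nqo1 window is chr8:107403156-107403455 on the minus strand, and the Akr1b8 window is chr6:34353896-34354195 on the plus strand. The Cbr3 window is chr16:93682969-93683268 on the plus strand and the Ptgr1 window chr4:58987029-58987328 on the minus strand. Nqo2 has a pair of windows, of which the one at chr13:33964409-33964708 on the plus strand is shown.
Nqo1: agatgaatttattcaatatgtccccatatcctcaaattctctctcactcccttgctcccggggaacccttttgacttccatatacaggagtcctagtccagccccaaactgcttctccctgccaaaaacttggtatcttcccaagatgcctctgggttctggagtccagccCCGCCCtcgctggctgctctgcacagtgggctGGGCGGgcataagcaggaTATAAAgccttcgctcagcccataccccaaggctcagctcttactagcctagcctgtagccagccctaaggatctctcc
Akr1b8: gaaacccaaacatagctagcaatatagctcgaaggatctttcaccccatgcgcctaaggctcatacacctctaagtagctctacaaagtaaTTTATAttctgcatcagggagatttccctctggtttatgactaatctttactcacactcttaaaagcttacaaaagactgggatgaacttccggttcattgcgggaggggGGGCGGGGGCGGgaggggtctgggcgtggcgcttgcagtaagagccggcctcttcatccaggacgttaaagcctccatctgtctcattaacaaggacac
Cbr3: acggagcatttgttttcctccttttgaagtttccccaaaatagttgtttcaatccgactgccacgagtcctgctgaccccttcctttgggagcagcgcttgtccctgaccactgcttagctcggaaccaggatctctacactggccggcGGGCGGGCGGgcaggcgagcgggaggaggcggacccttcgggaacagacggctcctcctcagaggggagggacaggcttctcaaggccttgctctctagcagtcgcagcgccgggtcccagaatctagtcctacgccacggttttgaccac
Ptgr1: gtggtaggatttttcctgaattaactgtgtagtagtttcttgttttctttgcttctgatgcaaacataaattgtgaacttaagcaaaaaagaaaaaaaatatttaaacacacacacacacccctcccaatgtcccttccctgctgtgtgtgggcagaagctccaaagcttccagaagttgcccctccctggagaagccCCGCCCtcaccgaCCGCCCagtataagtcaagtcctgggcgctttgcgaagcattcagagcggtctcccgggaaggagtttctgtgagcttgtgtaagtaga
Nqo2: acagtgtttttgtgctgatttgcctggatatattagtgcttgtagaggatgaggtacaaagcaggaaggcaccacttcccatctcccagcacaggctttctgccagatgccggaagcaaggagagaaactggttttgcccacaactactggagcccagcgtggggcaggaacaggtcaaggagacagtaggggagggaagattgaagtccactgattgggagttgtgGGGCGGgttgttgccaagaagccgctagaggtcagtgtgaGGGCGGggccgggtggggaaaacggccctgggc

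The core of the antioxidant response element, searched as TGACNNNGC on both strands, was in none of the 10 windows of the 9 measured genes, while 12.4% of all 32851 windows in the table hold it. The AP-1 site TGACTCA, which can overlap that core, was also in none of the 10 windows, and 5.20% of all windows hold it. These letters are therefore absent from these 300 bases, and elements farther away were not searched. A GC box lay in 6 of the 10 windows, against 35.7% of all windows. A TATA box lay in 2 of the 10, against 13.6% of all windows. That of Nqo1 begins at base -29 from the start, and that of Akr1b8 at base -159, on the opposite strand. The 4 genes that rose each had 2 matches to the GC box in the window, which overlap in Cbr3, and so had the printed window of Nqo2, whose signal did not rise.

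The aldo-keto reductases are soluble monomers that reduce aldehydes and ketones with NADPH. Akr1b8, also known as fibroblast growth factor-regulated protein, belongs with aldose reductase and reduces aldehydes such as those from lipid peroxidation. It had log2 signals of 9.66, 10.17 and 9.68 in 4NQO tongue and of 7.03, 6.83 and 7.59 in control tongue. The gap of 2.07 between the groups was wider than the range within either of them, 0.51 in 4NQO tongue and 0.77 in control tongue. With means of 9.84 ± 0.29 in 4NQO tongue and 7.15 ± 0.40 in control tongue (SD, n = 3 each), Akr1b8 rose 6.44-fold (log2 fold change 2.69, SE 0.23, limma's adjusted p = 0.0116), the highest log2 fold change among the 9 genes. Its adjusted p missed the threshold without 4NQO 2 (0.0692) or control 2 (0.0506) and was between 0.0111 and 0.0484 without any other single array. Akr1b8 passed without 4NQO 2 and control 3 together (adjusted p = 0.0213 from limma).

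Akr1c18 encodes a hydroxysteroid dehydrogenase that inactivates progesterone and is best known from the ovary. Its log2 signals were 5.11, 5.46 and 5.54 in 4NQO tongue and 4.71, 4.62 and 5.01 in control tongue. The groups did not overlap, with a gap of 0.11, and the log2 fold change of 0.59 (SE 0.18, limma's adjusted p = 0.318) did not pass the test. The signal lay below the median of all genes on each array, between 6.06 and 6.23, and could not be shown to exceed background. Akr1c13, another member of the Akr1c gene cluster, had log2 signals of 2.69, 2.78 and 2.56 in 4NQO tongue and of 2.34, 2.64 and 2.30 in control tongue. These are near the bottom of the array, at percentile 9.98 of all genes by mean signal, the groups overlapped, and the difference did not pass the test (log2 fold change 0.25, 95% interval from -0.04 to 0.54, adjusted p = 0.541 from limma). A probe set shared by Akr1c12 and Akr1c13 averaged 3.32 in 4NQO tongue and 3.16 in control tongue, and it was not tested. The log2 signal of Akr1c18 minus that of Akr1c13 was 2.42, 2.68 and 2.98 in 4NQO tongue and 2.37, 1.98 and 2.71 in control tongue, overlapping between the groups (change 0.34, two-sided exact permutation test, p = 0.3, adjusted p = 0.3 over 3 pairs). It changed by only 0.20 without 4NQO 3 and by 0.16 without control 2.

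The carbonyl reductases belong to the short-chain dehydrogenases, and Cbr1 and Cbr3 lie close together on chromosome 16. CBR1 reduces quinones, prostaglandins and anthracycline drugs, and CBR3 is a close relative with a narrower range of substrates. Cbr3 had log2 signals of 11.49, 11.54 and 11.16 in 4NQO tongue and of 9.98, 9.93 and 10.28 in control tongue. The means were 11.4 ± 0.21 in 4NQO tongue and 10.1 ± 0.19 in control tongue (SD, n = 3 each), the groups lay 0.88 apart, more than the range within either, and Cbr3 rose 2.52-fold (log2 fold change 1.33, SE 0.15, limma's adjusted p = 0.0295). It missed the threshold without 4NQO 1 (adjusted p = 0.123), 4NQO 2 (0.145), control 1 (0.125) or control 2 (0.144) in limma and passed without 4NQO 3 (0.0374) or control 3 (0.0330). Without 4NQO 2 and control 3 together the adjusted p was 0.154.

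Cbr1 had log2 signals of 9.29, 9.41 and 9.20 in 4NQO tongue and of 8.65, 8.62 and 8.56 in control tongue. Its control tongues were the closest together of the 9 genes, with an SD of 0.05, and the groups lay 0.55 apart. The log2 fold change of Cbr1 was 0.69 (SE 0.12, 95% interval 0.41 to 0.98), and its adjusted p of 0.0928 from limma did not pass; it lay between 0.0789 and 0.342 over the alternatives fitted with limma. The log2 signal of Cbr3 minus that of Cbr1 was 2.20, 2.12 and 1.96 in 4NQO tongue and 1.33, 1.31 and 1.72 in control tongue. All 4NQO-treated tongues lay higher in this difference, which changed by 0.64 between the groups (two-sided exact permutation test, p = 0.1, the smallest this design allows; adjusted p = 0.15 over 3 pairs).

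Cbr2, the carbonyl reductase of mouse lung, is a mitochondrial enzyme. It had log2 signals of 8.76, 8.81 and 9.18 in 4NQO tongue and of 9.22, 9.04 and 9.43 in control tongue. The groups overlapped, and the log2 fold change of -0.31 (SE 0.17, 95% interval from -0.70 to 0.08, adjusted p = 0.564 from limma) did not pass the test. This interval lies below that of Cbr3, which began at 0.98, and the difference between these genes was not tested.

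**Figure D2:**
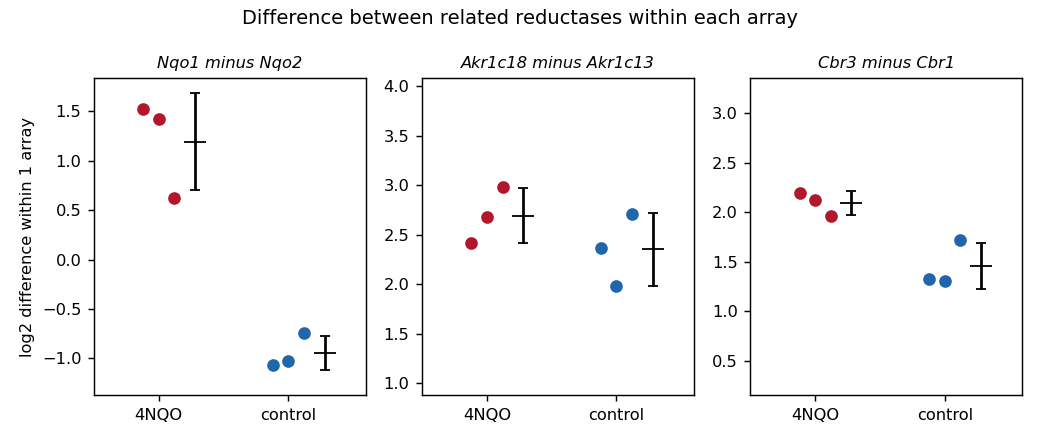
Log2 signal of 1 reductase minus that of a related reductase within the same array (vertical axis), for 3 4NQO-treated and 3 control tongues, with group mean and SD. The 4NQO points lie above the control points for Nqo1 minus Nqo2 and for Cbr3 minus Cbr1, by means of 2.13 and 0.64, and overlap them for Akr1c18 minus Akr1c13.

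Ptgr1 encodes prostaglandin reductase 1, which reduces the unsaturated bond next to a carbonyl group in prostaglandin and leukotriene metabolites and in lipid aldehydes. Its log2 signals were 12.65, 12.56 and 12.33 in 4NQO tongue and 11.19, 10.95 and 11.27 in control tongue. The groups lay 1.06 apart, against a range of 0.32 within 4NQO tongue and of 0.31 within control tongue. The means were 12.5 ± 0.17 in 4NQO tongue and 11.1 ± 0.16 in control tongue (SD, n = 3 each), and Ptgr1 rose 2.60-fold (log2 fold change 1.38, SE 0.13, limma's adjusted p = 0.0134). It missed the threshold without 4NQO 1 (adjusted p = 0.0585), 4NQO 2 (0.0889), control 1 (0.0507) or control 2 (0.0558) in limma and passed without 4NQO 3 (0.0274) or control 3 (0.0330). Without 4NQO 2 and control 3 together the adjusted p was 0.154.

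**Figure D3:**
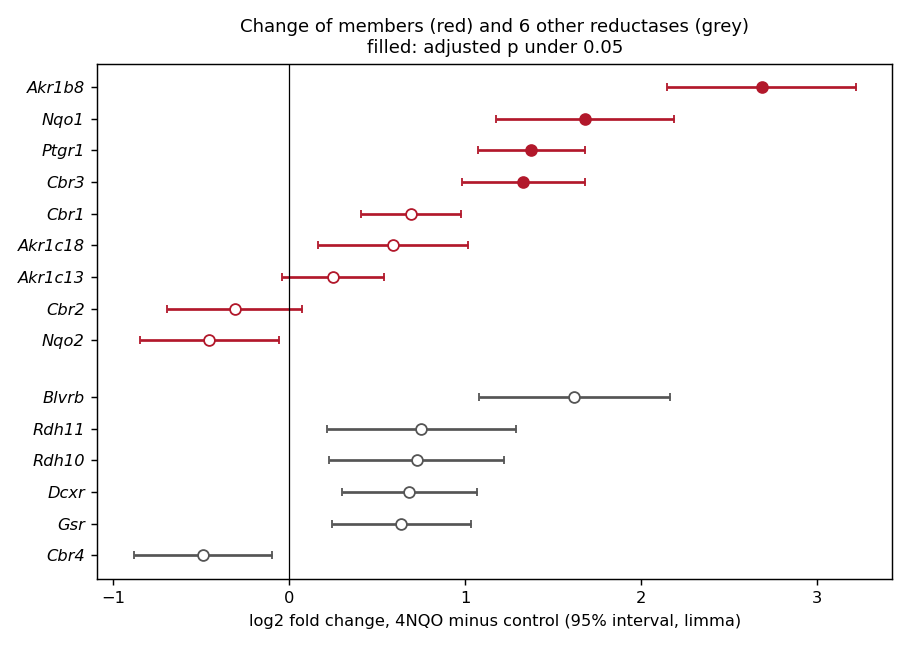
Log2 fold change, 4NQO minus control, with its 95% interval from limma (horizontal axis), for the 9 measured reductases in red and for 6 further reductases in grey. Filled points passed at an adjusted p under 0.05, and these are Akr1b8 at 2.69, Nqo1 at 1.68, Ptgr1 at 1.38 and Cbr3 at 1.33.

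The tongues of 1 group kept a similar order over the 4 genes that rose. All 4 were lowest in control 2 and highest in control 3 among the control tongues, and 3 of the 4 were lowest in 4NQO 3 among the 4NQO-treated tongues. Akr1b8 was lowest in 4NQO 1 instead. In 4NQO tongue 3 of the 4 were highest in 4NQO 2. Akr1c18 and Cbr2, which did not pass the test, had the same order among control tongues, while Nqo2, Akr1c13 and Cbr1 did not. In all, 6 of the 9 reductases were both lowest in control 2 and highest in control 3. The share of all genes with this order was not counted. 4NQO 2 and control 3 were also the arrays with the lowest mean of the muscle markers in their group and the highest Gapdh difference between the 3' and 5' ends. Over 7 of 8 salivary gland markers, Dcpp2 not being analysed here, the mean log2 signal was 3.45, 3.57 and 7.22 in 4NQO tongue and 3.67, 6.60 and 5.13 in control tongue. It was thus highest in the arrays 4NQO 3 and control 2, and the part of salivary gland, muscle or RNA quality in the order was not tested.

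The 4 calls were also compared with SAM, which scores probe sets and sets its threshold by permuting the group labels. Run on 35877 probe sets with a gene name, SAM called Akr1b8 (score 6.32), Ptgr1 (4.97), Cbr3 (4.37) and Nqo1 (4.23) higher and none of the other 5 genes. By SAM, 0.247% of all 18193 genes were called higher at the probe set that stood for them. Of these 5, Cbr1 had the highest score, 3.30.

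Other reductases were listed by family, to see whether the rise extended beyond the 9 genes. Of 44 measured genes in 3 such lists, none passed limma's test in either direction, while at an unadjusted p under 0.05 there were 5 that were higher and 1 that was lower, and SAM called none of them. Their median log2 fold change was -0.06, against -0.01 over all genes and 0.69 over the 9 reductases. The 9 genes and these lists were chosen with earlier results of these data known, so that this contrast is a description and no independent test. The groups did not overlap for 7 of the 9 reductases, 6 of them higher and 1 lower in 4NQO tongue, and for 11 of the 44 others, 7 higher and 4 lower, while this held for 9.59% of all genes in the higher and 7.18% in the lower direction. The list of 12 other aldo-keto reductases had the narrowest range, with log2 fold changes between -0.21 and 0.26 and overlapping groups throughout. Most of the 12, namely the Akr1c genes, Akr1cl and Akr1d1, were dim. Their group means ran from 2.14 (Akr1c20 in 4NQO tongue) to 3.35 (Akr1d1 in 4NQO tongue) and may be background. For these genes the narrow range does not show a lack of change, and they also enter the median of the 44. Only Akr1a1, Akr1b10, Akr1e1 and Akr7a5 were brighter. Of these, Akr1b10 lies beside Akr1b8 in 1 gene cluster on chromosome 6 and was singled out after its values were seen, with a log2 fold change of -0.13 (95% interval from -0.60 to 0.34).

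Among 15 other short-chain carbonyl reductases, Blvrb had the smallest p. It encodes biliverdin reductase B, a flavin reductase of heme breakdown, and had log2 signals of 10.11, 10.49 and 10.13 in 4NQO tongue and of 8.68, 8.14 and 9.05 in control tongue. The groups lay apart, and the log2 fold change was 1.62 (SE 0.23, limma's adjusted p = 0.0575). Blvrb passed in limma after centring of the arrays (adjusted p = 0.0498), with a robust variance model (0.0424) or without control 3 (0.0414). Dcxr, which reduces dicarbonyls and xylulose, did not pass, at 0.68 on the log2 scale and an adjusted p of 0.202 from limma. The retinol dehydrogenases Rdh10 and Rdh11 had log2 fold changes of 0.73 and 0.75, and Cbr4, a mitochondrial carbonyl reductase, had -0.49, with adjusted p between 0.293 and 0.380 from limma. None of these 4 passed, though the groups did not overlap for any of them.

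Among 17 other quinone, enone and flavin reductases, the smallest p belonged to Gsr, glutathione reductase, with a log2 fold change of 0.64 (SE 0.17, limma's adjusted p = 0.251). The list includes Xdh, xanthine dehydrogenase, and Aifm2, a quinone reductase of membranes, with log2 fold changes of -0.12 and -0.39. Txnrd1, thioredoxin reductase and an enzyme of the antioxidant response, had a log2 fold change of only 0.17 (adjusted p = 0.665 from limma), although its 4NQO-treated tongues all lay above its control tongues. Por, Dhrs9 and Akr1b3, which the lists also name, were not analysed here.

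**Figure D4:**
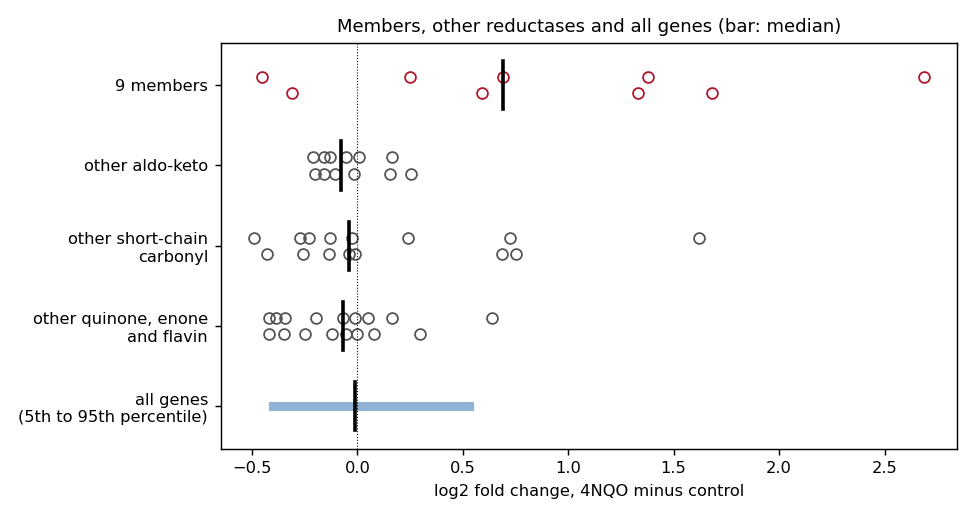
Log2 fold change, 4NQO minus control (horizontal axis), of the 9 measured reductases, of 3 lists of other reductases (1 open point per gene, bar for the median) and of all genes (band from the 5th to the 95th percentile, -0.40 to 0.53). The median of the 9 genes is 0.69, and those of the 3 lists are -0.08, -0.04 and -0.07.

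The genes whose log2 signal followed that of Nqo1 most closely over the 6 arrays were Gins1, a subunit of the replicative helicase complex, 9130023H24Rik and Gss, glutathione synthetase (Pearson's r between 0.994 and 0.998). For Akr1b8 they were Mcm6, another helicase subunit, Hspa1b, a heat shock protein, and Mfsd9 (r between 0.995 and 0.998). These are the top 3 of 18184 genes in each case, chosen by this likeness, and both groups enter, so that r includes the difference between them. None of the 6 passed limma's test on its own, with adjusted p from 0.0522 for Mcm6 to 0.321 for Mfsd9.

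Markers of other cell types were set beside these results. None of the 53 genes measured in 9 cell type lists was called by limma or SAM in either direction. Of all genes, limma called only 0.132% in either direction and SAM 0.247% higher. At such shares, the lack of a call among 53 genes does not show a stable mix of cells. At an unadjusted p under 0.05 from limma, 2 of the 53 were higher and 1 was lower, against 6.68% and 3.74% of all genes. For the 6 basal keratinocyte markers the median log2 fold change was 0.25 and for the 6 suprabasal markers 0.05, and groups overlapped for all 12. The 8 skeletal muscle markers had a median of -0.13 and the 6 fibroblast markers -0.28. Those of 6 macrophage markers and 4 T cell markers were 0.20 and 0.34, and the T cell means per array ran from 4.92 to 5.53 in 4NQO tongue and from 4.63 to 4.98 in control tongue, which overlap. Adipocyte and endothelial markers had medians of 0.42 and -0.06. The part of these shifts in the rise of the reductases was not tested.

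**Figure D5:**
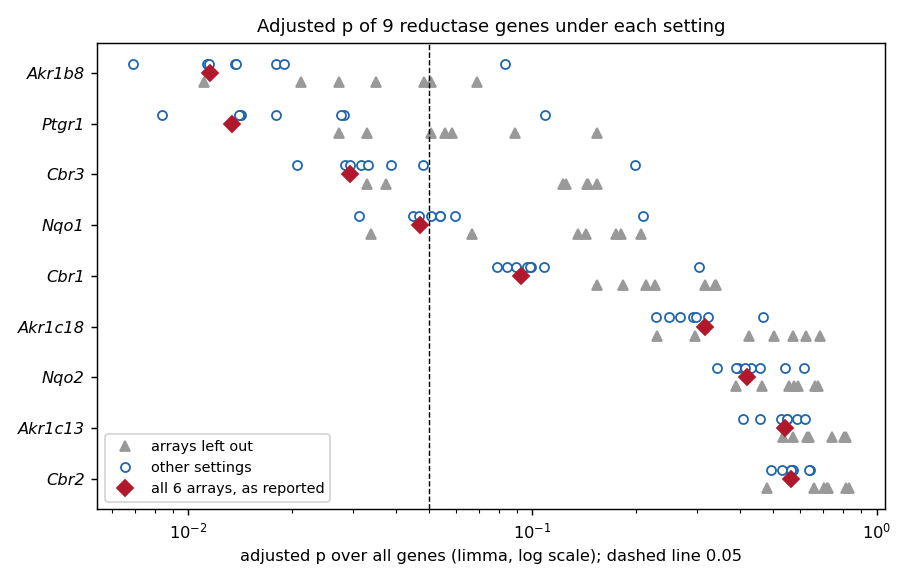
Adjusted p over all genes from limma (horizontal log axis) for each of the 9 measured reductases, with all 6 arrays as reported (diamonds), with 1 or a pair of arrays left out (triangles) and with other settings (circles). For Akr1b8 the reported value is 0.0116 and most points lie left of the dashed line at 0.05, for Nqo1 the reported value is 0.0471 and most lie right of it, and for Cbr1 none lies left of it.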

How the data were processed

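Total RNA of tongue tissue from 3 mice given 4NQO and 3 untreated mice, 1 mouse per array, was labelled and hybridised to Affymetrix mouse arrays. Each deposited value is the log2 signal of 1 probe set, as the authors had pre-processed and normalized it. Their methods cite another deposited series for the arrays than the one used here, and the files hold neither scanner signals nor detection calls, so that a dim probe set could not be shown to be above background. Of 45101 probe sets, 34945 were paired with 1 gene by the platform annotation, 932 with several, 9160 with none, and 64 were controls. Only those with 1 gene were named. Each gene was represented by its brightest probe set on average over the 6 arrays, which left 18193 genes, of which 18032 were found by Entrez ID in the RefSeq table with no symbol changed.

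The groups were compared with limma 3.58.1 in R 4.3.3 (lmFit, then eBayes with its trend option), and the p-values were adjusted over all genes by the Benjamini-Hochberg method, with 0.05 as the threshold. SAM, which the study's methods name, was run as an alternative on the probe sets with a gene name. It was written anew after its published description, while the study ran it in Excel, so that the calls need not be the same. Differences between related genes within an array were compared by a two-sided exact permutation test. The 10 genes and the other lists were chosen with earlier results of these data known. All 10 were to be described, and of the other reductases the 6 with the smallest p and any past the threshold were to be named. Akr1b10, Xdh, Aifm2 and Txnrd1 were named outside this rule. For Nqo1 and Akr1b8 the 3 genes most like them by Pearson's r over the 6 arrays were named. Motifs were searched on both strands of RefSeq start regions (GRCm38.p6). The scripts were tested on simulated data. Alternatives were centring, quantile normalization, leaving out dim genes, other rules for probe sets, other ways to model the variance, a block for the replicate number and leaving out each array. The number of arrays limits the precision.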

Additional observations from a re-analysis of the deposited data

How the results depend on the processing

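The direction of the log2 fold change of all 9 reductases, of the 6 other reductases named and of the 3 differences between related genes was the same under every alternative run. Much of this was fixed in advance. The variance models, the block, SAM and leaving out dim genes do not alter a log2 fold change, nor do the rules for probe sets in a gene with only 1. Where groups do not overlap, leaving out an array cannot reverse the direction either. 4 of the 9 reductases were called higher with all arrays. With any 1 array left out limma called 0 to 4 of them: 0 without 4NQO 2 or control 2, 1 without 4NQO 1 or control 1, 3 without control 3 and 4 without 4NQO 3. Without 4NQO 2 and control 3 together, an alternative chosen after seeing the data, 1 was called. In all 3 cases with 1 call the gene was Akr1b8. Nqo1 alone lost its call with quantile normalization (adjusted p = 0.0539), without dim genes (0.0506), with the mean of all probe sets (0.0595) and without probe sets of the _s_at and _x_at kind (0.0539), all from limma. Nqo1 has only 1 probe set. Its own values and its log2 fold change of 1.68 stayed the same without dim genes and under these rules for probe sets, where only the other genes in the fit changed. Of the 44 other reductases, 0 were called with all arrays, and 1, Blvrb, with centred arrays, with the robust variance model and without control 3, so that the range with 1 array left out was 0 to 1.

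The replicate number as a block left 0 of the 9 reductases called, with adjusted p of 0.0830 for Akr1b8, 0.108 for Ptgr1, 0.198 for Cbr3 and 0.209 for Nqo1 from limma, and 2 genes called higher in all. The labels do not say whether same-numbered tongues belong together. The correlations of the deviations of same-numbered arrays were 0.287, -0.51 and 0.0477. With 3 arrays per group such correlations cannot decide this, and the cause of the calls lost in this fit was not tested. The differences between related genes stayed at 2.13, 0.34 and 0.64 with the block, where the two-sided exact permutation p of 0.25 for each is the smallest that 3 pairs can give.

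Over all genes, limma called 23 higher and 1 lower, but 63 higher with centred arrays, 43 with the robust variance model, 15 with the mean of all probe sets, 10 without 4NQO 1, 1 without 4NQO 2, 0 without control 2 (833 at an unadjusted p under 0.05) and 4 without 4NQO 2 and control 3 together. Without the dimmer genes it called 12 higher of 9097, and Akr1c13 and Akr1c18 were then not tested. SAM called 64 probe sets higher and 1 lower. Leaving out an array also leaves fewer samples in the fit, and the cause of the lost calls was not tested. With no detection calls, the signal of dim genes such as Akr1c13 may be background, in which case it says nothing of the gene.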
